A study of Mus musculus with 5 samples.

Results

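Genes of iron storage and transport were examined for listed PU.1 binding sites in a mouse leukaemia, where PU.1 high was set against PU.1 low. They are Fth1, Ftl1, Tfrc, Slc40a1, Slc11a1, Slc11a2, Hmox1, Ireb2, Fbxl5 and Ncoa4, 10 of the 21631 protein-coding genes on the autosomes and chromosome X. All listed sites inside each gene or within 50 kb of either end were taken, and those inside or within 10 kb were counted separately. A site inside a gene counts as within both limits, however far it lies from an end. The genes were chosen by name, with the positions and scores of these same sites already known, so every count and score below is a description and no test was made.

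PU.1, the product of Spi1, belongs to the ETS family of transcription factors and drives the maturation of myeloid cells. The AML-246 leukaemia lacks p53 (p53-/-) and carries a short hairpin RNA against PU.1 (shPU.1), linked to GFP and switched off by doxycycline (Dox). Both groups share this genotype and come from spleens of leukaemic C57BL/6 recipients, whose ages the labels do not give. In the PU.1 low group (2 libraries) the mice were untreated, and in the PU.1 high group (3 libraries) they had received Dox for 2 days. The libraries of each group are technical replicates of a single leukaemia per the labels, so they need not stand for different mice, and host spleen cells may be among those taken. Chromatin was precipitated with the PU.1 antibody T-21 and sequenced (ChIP-seq).

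The deposited data are 1 list of 11111 summits, each the highest point of a site, with the score that the peak caller gave it on a −log10 scale. The 11106 summits on the autosomes and X were used. The list sets PU.1 high against PU.1 low, per its own name, and holds no value per library, no PU.1 level and no cell markers. The depth behind a site is unknown and its spread between replicates cannot be given. For the same reason the labelled cell type and the return of PU.1 could not be checked. A score tells how surely a site stands out and is not a fold change of binding. Over all these sites, scores had a median of 8.56 and quartiles of 5.78 and 11.9.

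Cells take up transferrin-bound iron through the transferrin receptor (Tfrc) and move it out of endosomes through the divalent metal transporter DMT1 (Slc11a2). They store it in ferritin, a shell of heavy (Fth1) and light (Ftl1) chains, and export it through ferroportin (Slc40a1). The regulatory protein IRP2 (Ireb2) binds ferritin and transferrin receptor mRNAs when iron is scarce, and the ubiquitin ligase subunit FBXL5 (Fbxl5) removes it when iron is plentiful. Macrophages recycle iron from engulfed red cells, for which haem oxygenase 1 (Hmox1) opens the haem ring, NRAMP1 (Slc11a1) pumps metal out of the phagosome, and NCOA4 (Ncoa4) delivers ferritin to the lysosome.

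Most sites counted around these genes lay outside the genes and more than 10 kb away, and a few had high scores. Of the 10 genes, 8 had at least 1 site within 50 kb (50.3% of all protein-coding genes did), and 4 had one within 10 kb (27.8% of all). Tfrc and Ireb2 had 0 within 50 kb. Together there were 19 distinct sites, of which 5 lay within 10 kb and 14 between 10 and 50 kb. The band from 10 to 50 kb is the wider one. This split was not counted around all protein-coding genes, so it cannot be called particular to the members. Inside a member lay 1 site, at Ncoa4, so 1 of the 10 genes held a site in its span (16.6% of all genes did). The members' median length was 19.2 kb, against 17.3 kb for all protein-coding genes, and the median number of sites within 50 kb was 1.5 against 1.

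The scores of the 19 sites ran from 1.85 to 41.7 with a median of 8.22, close to the 8.56 of all sites. Of these, 7 (36.8%) scored at least 10, against 37.4% of all sites, and they belonged to Fth1, Slc11a1 and Hmox1. These are 3 of the 10 genes, and 26.9% of all protein-coding genes had such a site within 50 kb. Among genes with a site within 50 kb, the median of the highest score was 8.16 for the 8 members and 10.4 for all 10883 such protein-coding genes.

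**Figure D1:**
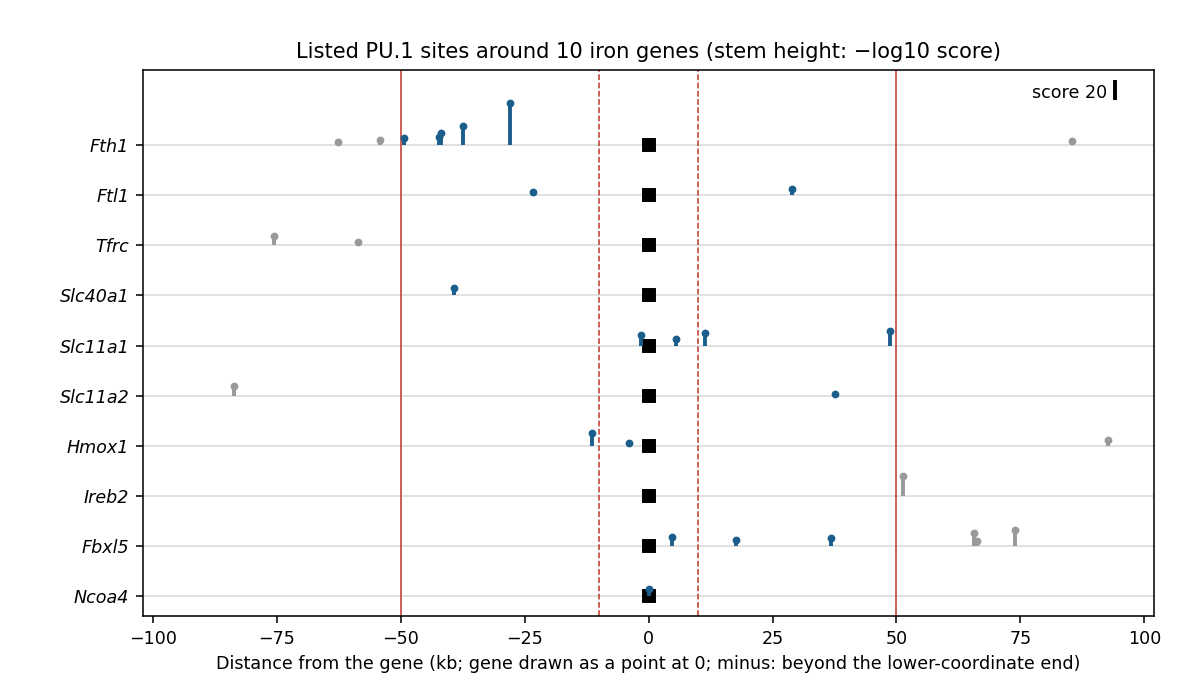
Listed PU.1 sites within 100 kb of the 10 iron genes, with signed distance from the gene in kb on the x axis and 1 row per gene; the height of each stem is the −log10 score (scale bar, score 20). Blue stems lie inside the gene or within 50 kb (solid red lines; dashed lines mark 10 kb), grey ones beyond; the tallest stem, of score 41.7, stands 28.0 kb below Fth1.

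Fth1 (gene ID 14319; chromosome 19, 9980600 to 9985111) is the ferroxidase subunit of ferritin, which oxidises iron for storage. It had 0 sites inside or within 10 kb and 5 within 50 kb, all beyond its lower end. Only 3.61% of protein-coding genes had 5 or more in such a window, and Fth1 was the 1 member among them. The Fth1 count just met that limit, and merging summits less than 500 bp apart took it below 5. RefSeq places the gene on the plus strand, so all 5 were upstream. From far to near, the summits at 9931316, 9938348, 9938759, 9943088 and 9952570 lay 49.3, 42.3, 41.8, 37.5 and 28.0 kb from the gene. In the same order their scores were 6.73, 8.46, 12.1, 19.1 and 41.7, each higher than the one before.

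The site at 9952570 had the second-highest score of the list. Above it stood only a site near Tiprl (43.3), and the next below lay near Cracdl (41.5). The Fth1 sites spanned 21.3 kb, with gaps from 411 bp to 9.48 kb, whereas neighbouring sites of the list lay a median of 54.9 kb apart. Across the list, 161 of the sites (1.45%) belonged to a run of 5 as tightly spaced. The run length and the spacing were both set by the Fth1 sites themselves, so this share is a description and not a test. A further 2 sites of low score lay just beyond the 50 kb limit, at 54.3 kb (score 4.99) and 62.7 kb (3.24), so that the group held 7 sites over 34.6 kb.

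Other genes stand around this group. The noncoding RNA gene Gm36913 (chromosome 19, 9924548 to 9947624) held 4 of the 5 sites, and the highest-scoring site lay 4.95 kb beyond its upper end. Fth1 was the nearest protein-coding gene to the sites of score 41.7 and 19.1. The other 3 were nearer to Incenp, a gene of chromosome segregation, which lay 31.8 to 39.3 kb away on the far side. Best1, a chloride channel gene, and Rab3il1 lie beyond the upper end of Fth1 and had the highest-scoring site within 50 kb too. Which gene a distal site acts on cannot be read from distance.

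**Figure D2:**
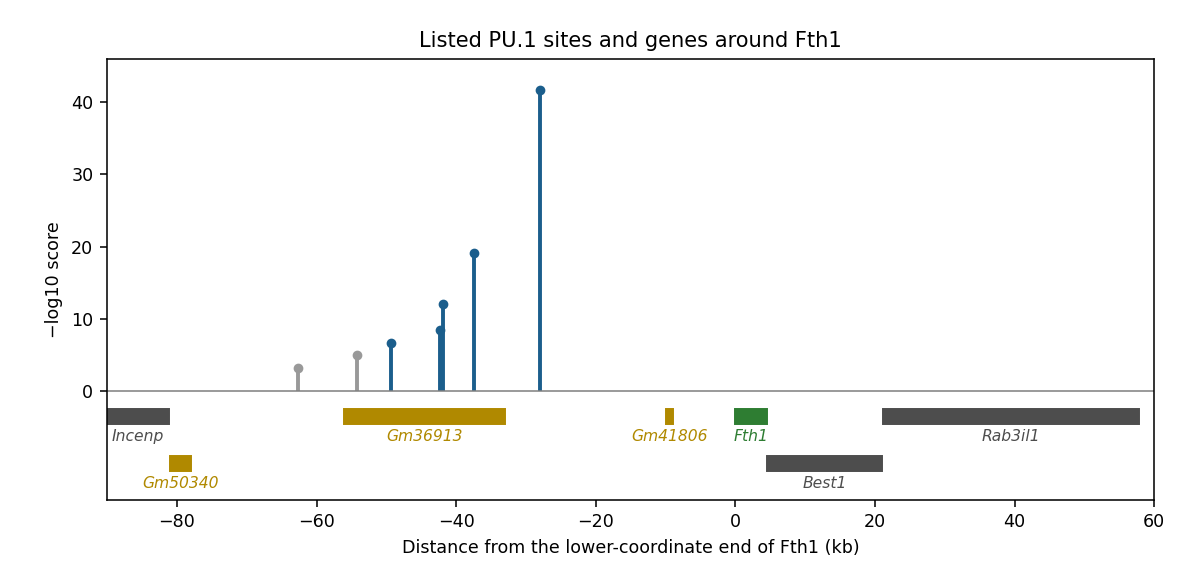
Sites and genes around Fth1: the x axis gives the distance from its lower end in kb and the stems the −log10 score of each site (blue, within 50 kb of Fth1; grey, farther). Boxes are RefSeq genes (green, Fth1; grey, other protein-coding; gold, noncoding); scores climb from 3.24 to 41.7 towards Fth1, and no site lies between the highest one and Rab3il1.

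No site fell in the promoter windows of Fth1. RefSeq gives 2 transcription starts, at 9980600 and 9982646, and the highest-scoring site lay 28.0 and 30.1 kb upstream of them. The upstream part of the second start is shown because the group of sites stands so far from it. It is chr19:9982396-9982645, plus strand, build GRCm38.p6, printed 5′ to 3′ as in RefSeq, with GGAA or its reverse complement TTCC, the core that ETS factors bind, in capitals.
Fth1: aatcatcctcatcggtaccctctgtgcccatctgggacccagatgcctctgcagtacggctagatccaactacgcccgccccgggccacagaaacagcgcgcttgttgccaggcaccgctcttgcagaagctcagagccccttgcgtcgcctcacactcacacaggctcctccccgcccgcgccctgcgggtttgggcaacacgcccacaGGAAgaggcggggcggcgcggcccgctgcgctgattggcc
These 250 bases hold 1 match, and the 250 bases upstream of the first start, which is nearer to the sites, hold 4.

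Ftl1 (gene ID 14325; chromosome 7, 45457944 to 45459886) is the subunit that helps the iron core form. It had 2 sites within 50 kb and 0 within 10 kb. One summit, at 45434595, scored 3.48 at 23.3 kb below the gene, and the other, at 45488874, scored 6.57 at 29.0 kb above it. Both were inside other genes, the first in Ruvbl2 and the second where Tulp2 and Dhdh overlap. With 9 other protein-coding genes within 50 kb, Ftl1 was the most crowded of the members (median 2.5 for the members and 3 for all protein-coding genes). The highest score within 50 kb was thus 41.7 for Fth1 and 6.57 for Ftl1, and Ftl1 was the nearest protein-coding gene to neither of its sites.

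The summit at 45434595 was the only one of the 19 for which the surrounding 50 bases on each side could be read, since it lies in the RefSeq promoter window of Ruvbl2. It is shown on the plus strand (chr7:45434545-45434645, GRCm38.p6) with GGAA or TTCC in capitals and the summit at the middle base.
Ruvbl2: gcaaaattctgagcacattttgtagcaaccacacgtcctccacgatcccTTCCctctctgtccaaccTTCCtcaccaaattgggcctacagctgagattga
It holds 2 matches, and 1 of them is part of the longer GAGGAA on the opposite strand. Across the list, 432 sites could be read in this way, all of them next to a transcription start. Of those, 99.1% held GGAA on either strand, 35.6% GAGGAA and 10.6% the PU.1 motif GAGGAAGT. In the middle 101 bases of all 32851 promoter windows the shares were 67.5%, 9.55% and 0.944%. A longer motif contains the shorter ones, so these shares overlap. The AP-1 motif TGANTCA was at 2.08% of the sites and in 3.03% of the windows.

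Tfrc (gene ID 22042; chromosome 16, 32608896 to 32632794), the receptor for iron-loaded transferrin, had 0 sites within 50 kb. Its nearest site lay 58.6 kb upstream with a score of 3.24, and a second lay 75.5 kb from the gene with 9.71. Both were nearer to Zdhhc19. Slc11a2 (gene ID 18174; chromosome 15, 100387898 to 100424209) had 1 site within 50 kb, at 100461899. It lay 37.7 kb beyond the upper end, had the lowest score of the 19 (1.85), and was 0.522 kb from Letmd1. Slc40a1 (gene ID 53945; chromosome 1, 45908070 to 45926532), the only known iron exporter of mammalian cells, had 1 site, at 45868910. It scored 7.59, lay 39.2 kb beyond the lower end and had Slc40a1 as its nearest protein-coding gene. Wdr75 also lay within 50 kb of this site, though no other protein-coding gene lies within 50 kb of Slc40a1.

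The 3 genes of uptake and export thus carried no site within 10 kb, and neither of the sites within 50 kb reached the median score of the list. RefSeq gives 2 starts for Tfrc, at 32608896 and 32609122. The upstream part of the first is shown as that of a gene with no site within 50 kb (chr16:32608646-32608895, plus strand, GRCm38.p6, matches to GGAA or TTCC in capitals).
Tfrc: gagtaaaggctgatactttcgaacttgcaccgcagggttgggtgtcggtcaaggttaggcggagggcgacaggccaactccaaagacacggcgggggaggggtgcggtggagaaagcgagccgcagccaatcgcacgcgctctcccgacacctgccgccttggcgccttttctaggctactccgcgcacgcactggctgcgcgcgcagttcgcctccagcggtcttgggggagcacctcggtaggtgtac
It holds 0 matches, and the RefSeq window that runs 50 bases past this start holds 2, both after the start. The upstream part of the second start holds 3, the median count over all promoter windows of 300 bases.

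Slc11a1 (gene ID 18173; chromosome 1, 74375014 to 74386057), the natural resistance protein of macrophages, had 4 sites within 50 kb, of which 2 lay within 10 kb. The summit at 74373458 lay 1.56 kb beyond the lower end, 1.75 kb upstream of the RefSeq start, and scored 10.4. This was the site closest to any of the members from outside. The summits at 74391663, 74397534 and 74434760 lay 5.61, 11.5 and 48.7 kb beyond the upper end and scored 6.48, 12.3 and 14.8. All 3 were nearer to other genes, the first inside Ctdsp1, a phosphatase gene, the second 0.249 kb from Ctdsp1, and the third inside Vil1, which encodes villin. Of the 4 scores, 3 were above the median of the list.

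The upstream part of the Slc11a1 start (chr1:74374953-74375202, plus strand, GRCm38.p6) is shown because, of the members with a promoter sequence, it lies nearest to a site; the marks are as above.
Slc11a1: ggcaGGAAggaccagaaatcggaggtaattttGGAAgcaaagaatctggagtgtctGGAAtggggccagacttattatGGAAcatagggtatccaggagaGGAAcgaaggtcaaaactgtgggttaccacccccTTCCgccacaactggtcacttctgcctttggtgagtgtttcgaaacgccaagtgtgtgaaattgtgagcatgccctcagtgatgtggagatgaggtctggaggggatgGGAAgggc
It holds 7 matches, and the whole window of 300 bases holds 8, the most among the 6 members with a promoter sequence, against a median of 3 over all promoter windows. The summit itself lies outside this stretch.

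Hmox1 (gene ID 15368; chromosome 8, 75093618 to 75100593) had 2 sites within 50 kb, both beyond its lower end and both with Hmox1 as the nearest protein-coding gene. The nearer, at 75089770 and 3.85 kb away, had the low score of 2.80, above 3.85% of the list. The farther, at 75082132 and 11.5 kb away, scored 12.3. The gene is known to be controlled through distal enhancers that the repressor BACH1 and the activator NRF2 bind, and whether either summit falls on one of them was not examined. Of the 8 members with a site, Slc11a1 and Hmox1 were the only ones other than Fth1 with a score above 10.

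Ireb2 (gene ID 64602; chromosome 9, 54862658 to 54912534) had 0 sites within 50 kb. Its nearest site lay just outside that limit, 51.3 kb beyond the upper end, and scored 19.7, above every site of the other members except that of 41.7 at Fth1. It lay 5.77 kb from Psma4, a proteasome subunit gene. Fbxl5 (gene ID 242960; chromosome 5, 43744618 to 43782149), whose product degrades IRP2, had 3 sites within 50 kb, all beyond its upper end. The summits at 43786834, 43799753 and 43818864 lay 4.68, 17.6 and 36.7 kb away and scored 8.72, 5.59 and 8.22. Fbxl5 was the nearest protein-coding gene to the first 2, and the third lay 16 bp from Bst1, a surface enzyme gene of bone marrow stroma and myeloid cells. Beyond the 50 kb limit the region held 3 more sites, at 65.5, 66.3 and 73.8 kb, with scores of 13.0, 5.23 and 15.7, all nearer to Bst1.

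Ncoa4 (gene ID 27057; chromosome 14, 32159879 to 32179855), the cargo receptor of ferritin breakdown, had 1 site, at 32174301. It lay within the gene, 5.55 kb before the upper end. RefSeq gives 3 starts for Ncoa4, and the site lay 14.4, 8.71 and 8.51 kb downstream of them. Its score was 6.61, below the median of the list.

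Around the limits of the windows, the sites just inside 50 kb were those of Fth1 at 49.3 kb (6.73) and Slc11a1 at 48.7 kb (14.8), and the nearest outside were those of Ireb2 at 51.3 kb (19.7) and Fth1 at 54.3 kb (4.99). At 10 kb, the Slc11a1 site at 5.61 kb was the last inside and the Slc11a1 and Hmox1 sites at 11.5 kb, of score 12.3 each, were the first outside.

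**Figure D3:**
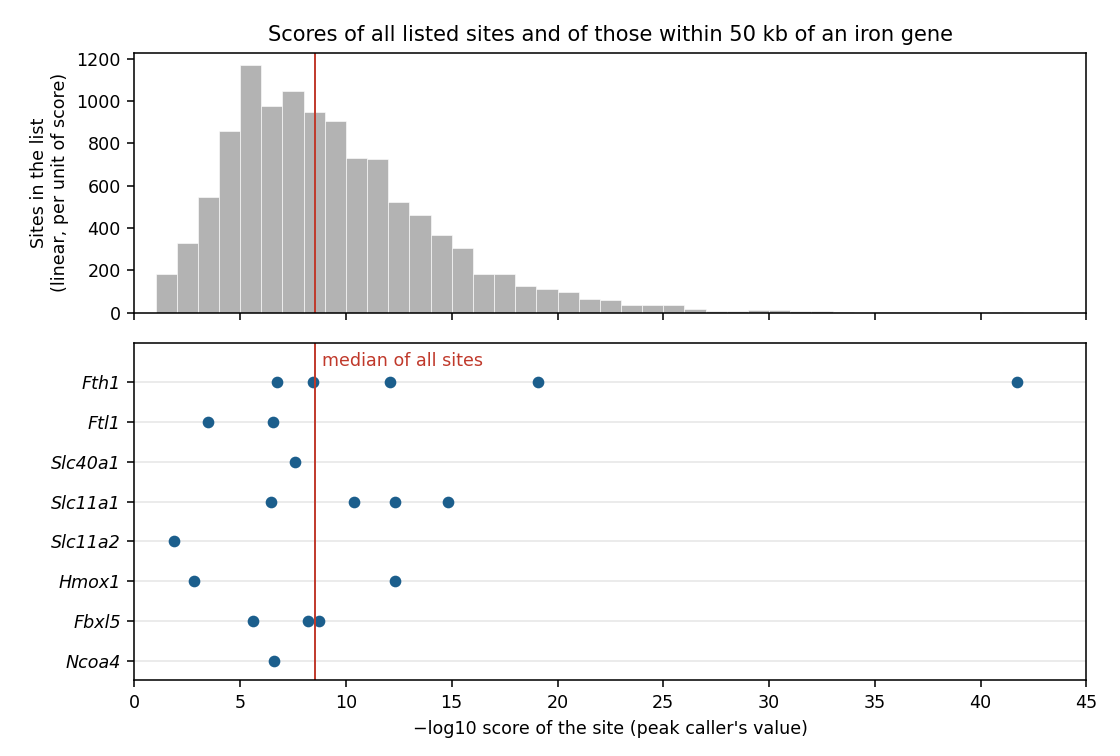
Scores of listed sites: the upper panel counts the 11106 sites by −log10 score, and the lower panel shows each site within 50 kb of a member as a point, 1 row per gene. The red line is the median of all sites, 8.56; 8 of the 19 points lie above it, and the point at 41.7 belongs to Fth1.

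By distance to the whole gene, a member was the nearest protein-coding gene for 9 of the 19 sites, and 6 of the 10 members were nearest to at least 1 (25.6% of all protein-coding genes were). The 6 were Fth1, Slc40a1, Slc11a1, Hmox1, Fbxl5 and Ncoa4. The other 10 sites had a nearer neighbour, and 4 of them lay inside one. Beyond the members, 10 sites lay past the lower and 8 past the upper end.

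Starts with a promoter sequence were given for 6 of the 10 members, in 10 windows, and none held a summit. Slc40a1, Slc11a2, Hmox1 and Fbxl5 had no entry. GGAA on either strand was present for all 6 genes, in 9 of the 10 windows, and in 96.0% of all 32851 windows of the same 300 bases. GAGGAA was found for Slc11a1 and Ireb2, and 28.3% of all windows held it. The longer GAGGAAGT was found for 0 of the 6 (3.20% of all windows). TGANTCA (AP-1), the same letters with TGC in front (the element of MAF and BACH proteins) and CACGTG (the E-box) were each found for 0 of the 6, and in 7.81%, 0.423% and 7.15% of all windows. TGTGGT (RUNX) was in 1 window of Ncoa4 (16.8% of all) and TTGCNNAA (C/EBP) in 1 of Fth1 (10.8% of all). The presence of letters is a description and does not mark a bound site.

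Ferritin and Ncoa4 have processed copies elsewhere in the genome, which can share reads with the genes. Of 8 pseudogenes named after ferritin or Ncoa4, Fth-ps3 was the only one with a site within 10 kb (5.56 kb away, score 7.03), and Ncoa4-ps had one at 49.3 kb (8.35). No site lay inside a pseudogene or inside Fth1 or Ftl1.

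Other genes of iron biology had sites in similar shares. Of 91 genes in 4 further lists, 37 (40.7%) had a site within 10 kb and 64 (70.3%) within 50 kb, against the 27.8% and 50.3% of all protein-coding genes given above. The median of the highest score was 12.2 for those with a site within 50 kb. By distance to gene ends alone, 29 of the 91 had a site within 10 kb, against 22.4% of all protein-coding genes. The lengths of the 91 genes were not compared with those of all genes. The lists were put together with results of these data known, so the shares are given without a test.

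Of 40 genes of systemic and cellular iron handling, 16 had a site within 10 kb. The highest scores within 10 kb were at Exoc6 (31.8, inside the gene), an exocyst subunit of the transferrin cycle, Ltf (18.0, 9.34 kb beyond the lower end), the gene of lactoferrin, and Vps35 (14.5, inside), a retromer subunit. The Exoc6 site lay 10.2 kb from the nearer end of the gene, and Ltf had 4 sites within 10 kb. Cybrd1, an iron reductase of the gut, and Ftmt, the mitochondrial ferritin, had 0 within 50 kb.

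Of 26 genes of haem synthesis, transport and breakdown, 11 had a site within 10 kb and 22 within 50 kb. Within 10 kb, Keap1, which holds NRF2 in check, had the highest score, 16.1, at 2.22 kb beyond its upper end, and a second site of 14.5. Keap1 was not the nearest protein-coding gene to any of the sites within 50 kb of it. Nfe2l2, the gene of NRF2 itself, had 2 sites, of 11.0 and 4.24, the higher 0.091 kb inside its upper end. Blvrb, a biliverdin reductase gene, had 1 of 11.0 inside the gene. Alas2, the erythroid enzyme that starts haem synthesis, had 0 within 50 kb.

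Of 15 genes of iron-sulphur cluster assembly, 6 had a site within 10 kb, led by Nubp1 (11.1), Isca2 (10.7) and Lyrm4 (9.48). The Lyrm4 site lay inside the gene, 64.5 kb from its nearer end. Isca2 was not the nearest protein-coding gene to any of the sites within 50 kb of it. Abcb8 and Ciao1 had 0 within 50 kb. Of 10 genes of ferroptosis and lipid peroxidation, 4 had one within 10 kb. Slc7a11, the cystine carrier that feeds glutathione synthesis, had 3 sites, with scores from 11.8 to 14.1. All lay inside the gene, and the highest was 42.1 kb from the nearer end. Lpcat3 (11.3) and Alox5 (9.30), both of lipid metabolism, followed, and Acsl4 and Aifm2 had 0 within 50 kb. The Lpcat3 site lay inside the gene, 16.1 kb from its nearer end.

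**Figure D4:**
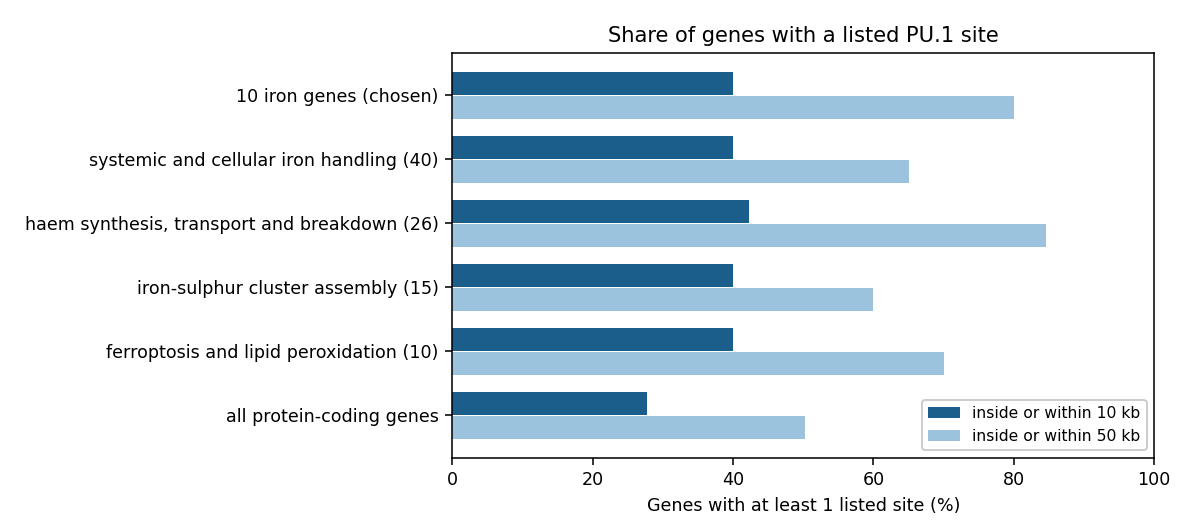
Share of genes with at least 1 listed site inside the gene or within 10 kb (dark bars) or 50 kb (light bars), in percent, for the 10 members, the 4 further lists (number of genes in brackets) and all protein-coding genes. The dark bars of the 4 further lists stand between 40.0% and 42.3%, and that of all protein-coding genes at 27.8%.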

How the data were processed

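PU.1 ChIP-seq was deposited as 1 list of summits for 5 libraries. Per the submitters' processing notes, CASAVA 1.8.2, MACS2 and build mm10 were used. Not given in the sources used here are the aligner, the settings and version of the peak caller and how technical replicates were combined. The authors deposited 1 score per summit on a −log10 scale, without saying if it comes from a p-value or q-value. The list sets high against low by its name.

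Genes were taken from RefSeq (GRCm38.p6, the assembly that mm10 is made from), and positions are 1-based. All 10 members and 91 of 91 further genes matched by symbol. The 5 summits on other sequences were left out. Distance was measured to the gene's span, 0 inside (Python 3.11.15, pandas 2.3.3). Motifs were searched by exact match on both strands. Only promoter windows were available as sequence, so the planned motif search around every summit was not run. Distances and motif matches were tested on simulated data.

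The members, lists and windows were chosen with earlier results of these data known. Named genes are the members, the 3 highest-scoring genes within 10 kb and the alphabetically first 2 lacking any site within 50 kb per further list, the nearest genes to the members' sites, and those next in rank to the highest site. Of the genes this rule takes, 1 is not reported here. Genes named outside this rule, such as Best1, Rab3il1, Gm36913, Zdhhc19, Psma4 and the pseudogenes, were chosen after their values were seen.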

Additional observations from a re-analysis of the deposited data

How the results depend on the processing

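Of 64 alternative values of 10 results, 35 were labelled the same as the value reported, but the label does not mean a small change. It covered further iron genes within 50 kb falling from 64 to 44 with a score of at least 10. It also covered those within 10 kb going from 37 to 28 with a 5 kb window and to 47 with 20 kb. A share of all protein-coding genes that went from 50.3% to 49.5% was labelled moved. With a score of at least 10, 1 member had a site within 10 kb (1 site) and 3 within 50 kb (7 sites), the median of the highest score was 14.8, the shares of all protein-coding genes were 12.7% and 26.9%, and 16 further iron genes had a site within 10 kb. With a score of at least 5, the median was 8.72 and the shares 24.0% and 45.2%. With windows of 5 and 25 kb, 5 members had a site within the wider one (9 sites), with a median of 8.72 and shares of 23.4% and 38.3%. With windows of 20 and 100 kb there were 8 and 30 sites, a median of 11.0 and shares of 35.1% and 64.3%. With each site given only to its nearest protein-coding gene, 9 sites within 50 kb and 35 further genes were left, with a median of 9.56 and shares of 22.3% and 25.6%. Counting distance to gene ends alone gave shares of 22.4% and 49.5%, and 29 further iron genes within 10 kb. GGAA in place of GAGGAA raised the share with the motif, among the 6 members with a promoter sequence, from 33.3% to 100%. Of all promoter windows, 28.3% held GAGGAA and 96% held GGAA. Stricter scores and narrower windows leave fewer sites by construction. Merging summits less than 500 bp apart joined 2 Fth1 sites, which left Fth1 with fewer than 5, and moved the total to 18. The window of 50 bp on each side of every summit was not run for want of sequence. No paired analysis was possible because the list holds no values per replicate, and leave-one-out values cannot be had from it. Depth is unknown, and the list sets PU.1 high against PU.1 low, so a site bound alike in both may be missing from it. A gene without a listed site is thus not shown to lack PU.1.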
